A study of Homo sapiens with 6 samples.

Results

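The 10 genes described here are HSP70 and HSP110 chaperone genes: HSPA6, HSPA1A, HSPA1B, HSPA1L, HSPA8, HSPA9 and HSPA13 of the HSP70 family, and HSPH1, HSPA4 and HSPA4L of the HSP110 branch. They were found by gene symbol in the authors' deposited table of genes past their thresholds, which lists 7 of the 10 among 7150 genes in all. HSPA1A, HSPA4 and HSPA13 are absent from that table, so each was either not past the thresholds or not tested, and no value is given for them. The members were selected on the fold changes of this same comparison, HSPA6 having the largest increase of all listed genes, so their fold changes are given as a description and no test is drawn from them.

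HSP70 proteins bind exposed hydrophobic stretches of unfolded proteins and release them in a cycle driven by ATP, helped by J-domain proteins that deliver clients and by exchange factors that remove ADP. HSP110 proteins are relatives of HSP70 that act mainly as its exchange factors and help to dissolve protein aggregates. HSPA8 is the constitutive cytosolic form, while HSPA1A, HSPA1B and HSPA6 are induced when heat shock factor 1 (HSF1) is freed by misfolded proteins and binds inverted repeats of GAA in promoters.

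RNA was sequenced from 3 libraries of MDA-MB-231 cells, an established human triple-negative breast cancer line labelled wild type, given 0.5 µM shikonin for 24 h, and from 3 libraries of the same line with no treatment. Shikonin is a naphthoquinone from plant roots. The labels write the unit of the dose with a lower-case m, taken here as micromolar, and they name no vehicle for the control. Nothing in the labels says that libraries came from separate cultures, so the standard errors below may measure technical spread.

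The deposited table holds 1 comparison, with 0 columns of per-sample values, so neither the depth of each library nor a value per library can be given. Levels below are implied group means, solved from the authors' mean normalized count and fold change with equal weight for both groups. Errors of fold changes are the authors' standard errors, or 95% intervals computed from them. Genes with positive values are marked "up" by the authors, which is taken to mean higher in shikonin. All 7150 listed genes had an adjusted p under 0.05 by the authors' DESeq2 test and a fold above 1.5. About 14253 genes were tested, as implied by the adjusted p-values, of which 50.2% were listed, 25.5% higher and 24.7% lower. With the implied totals of listed genes set equal in both groups, every log2 fold change shifts down by 0.39 and the split of listed genes past 1.5-fold goes to 2391 higher and 3520 lower (40.5% higher, against 50.8% with the authors' scaling). The lower count holds listed genes only, so it cannot change, and unlisted genes that would become lower are not seen. Of the markers of this mesenchymal line, 4 of 6 were listed, SPARC, VIM and CAV1 higher and FN1 lower. SPARC was at low counts, an implied 34.9 normalized counts in shikonin and 7.34 in control. VIM had an implied 81887 normalized counts in shikonin and 46972 in control, and FN1 5312 in shikonin and 9589 in control. ESR1 and PGR, the receptors the line is known to lack, were not listed. Not being listed gives no level, as genes without a change are also left out. Of 7 luminal or receptor genes 3 were listed, KRT18 and KRT8 higher and ERBB2 lower. KRT8 had an implied 22514 normalized counts in shikonin and 9454 in control, a control level near that of FN1. KRT18 had 13603 in shikonin and 4278 in control, and ERBB2 1090 in shikonin and 2174 in control. Of 4 markers of other cells 1, ACTA2, was listed, higher, while PTPRC, HBB and COL1A1 were not, which likewise gives no level. Whether these markers play a part in the chaperone values was not tested.

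Of the 10 members, 6 were listed higher in shikonin and 1, HSPA4L, lower. The stress-inducible HSPA6 and HSPA1B, and HSPA1L, their relative known mainly from testis, had the largest folds and were at least an order of magnitude higher. HSPH1 and the constitutive HSPA8 were between 2-fold and 4-fold higher, and the mitochondrial HSPA9 was near the authors' fold threshold. The median log2 fold change of the 7 listed members was 1.98 in the authors' deposited table, beside 0.60 over all listed genes. The share of all tested genes listed higher, 25.5%, is background only, since the choice of members rests on the same contrast. At a fold of at least 2, 5 members were higher and 0 lower, where 16.4% and 14.6% of all tested genes were. With the whole 95% interval beyond 2-fold, it was 5 and 0, beside 8.43% and 7.25%. At an adjusted p under 0.001 in the authors' deposited table, it was 6 and 1, beside 20.5% and 21.2%, and at a mean of at least 100 normalized counts 6 and 1, beside 19.7% and 22.6%. Past 1.5-fold with equal implied totals 5 were higher and 1 lower, beside 16.8% and 24.7%, or 17.2% and 24.7% where the totals left out the members. HSPA9 left the higher count at a fold of at least 2, with the interval beyond 2-fold and with equal totals. HSPA4L left the lower count at a fold of at least 2 and with the interval beyond 2-fold, and stayed in it with equal totals.

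**Figure D1:**
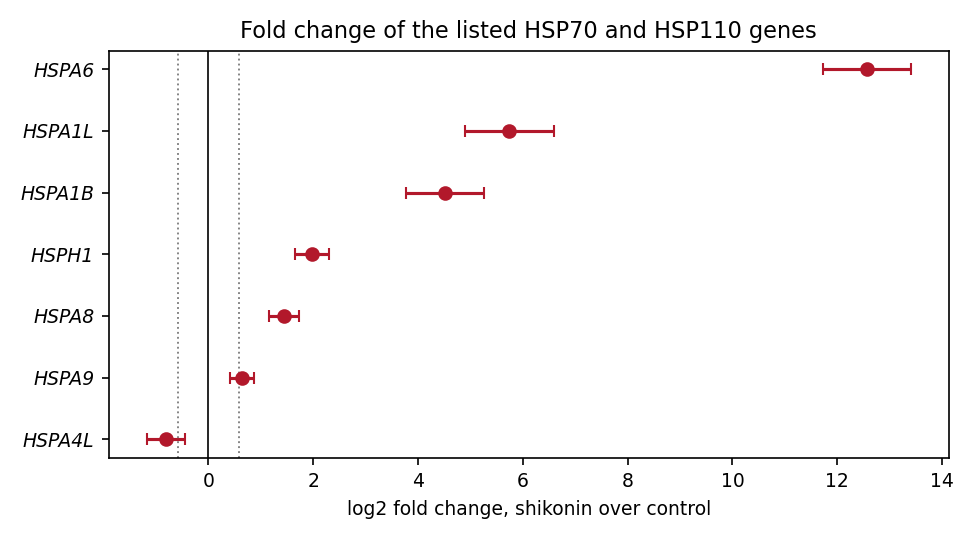
Log2 fold change of each listed member, shikonin over control, from the authors' deposited table; points are the authors' estimates, bars are 95% intervals from their standard errors, and dotted lines mark the 1.5-fold threshold. HSPA6 stands alone at 12.57, HSPA1L and HSPA1B have overlapping intervals, as do HSPH1 and HSPA8, and HSPA4L alone lies below 0.

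HSPA6 encodes HSP70B', a strictly stress-inducible cytosolic HSP70. It is an intronless gene of chromosome 1, from 161524540 to 161526910 on the plus strand (GRCh38, GENCODE 29), and gives a transcript of 2371 nt with 1929 nt of coding sequence. The implied mean was 145959 normalized counts in shikonin libraries, against 24.0 in control libraries. In the authors' deposited table this is a log2 fold change of 12.57 ± 0.42 (standard error), or 6074-fold (95% interval 3410 to 10817). HSPA6 ranked 6 of 7150 by mean normalized count over all libraries. In bulk RNA, more cells with a transcript and more transcript per cell cannot be told apart.

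The 5 listed genes with log2 fold changes nearest to that of HSPA6 in this single comparison were CRYAB, LOC284344, KRT18P17, OVOL1 and LCK. Their log2 fold changes lay between 8.63 and 10.47 in the authors' deposited table, which is 2.10 to 3.94 below HSPA6. Implied means of these 5 were 63.5 to 228 normalized counts in shikonin and 0.161 to 0.313 in control. Their fitted folds rest on almost no control reads and are no bounds. HSPA6 differs in having an implied 24.0 normalized counts in control.

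**Figure D2:**
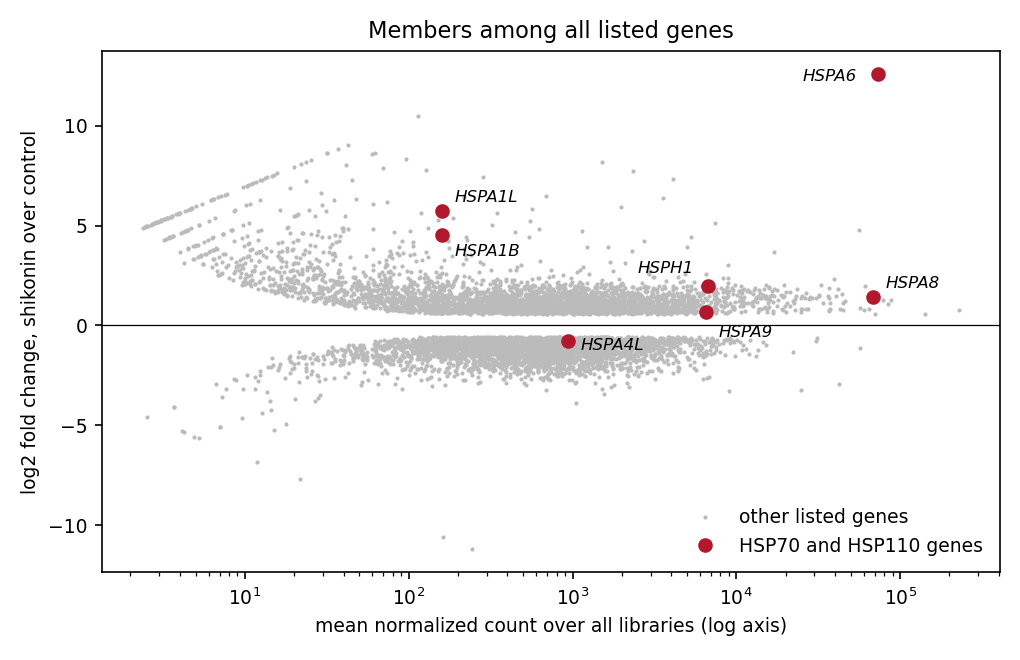
Log2 fold change, shikonin over control, against the mean normalized count over all libraries (log axis) for all 7150 listed genes; each dot is a gene and the members are marked. Other genes with large folds mostly lie at low counts, whereas HSPA6, at a mean of 72991, combines the largest fold with a rank of 6 by level.

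The promoters of 4 HSP70 genes are shown because HSF1 is known to act through them and because their letters do not depend on the read counts. They are the 250 bases before the RefSeq transcription start in GRCh38.p14, written 5′ to 3′ on the gene's strand. Capitals mark inverted repeats of GAA, each unit parted from the next by NN: a pair of units is GAA followed by its complement TTC, or the reverse order, and a run of 3 alternates the same units, starting with either.
HSPA6 (chr1:161524290-161524539, plus strand): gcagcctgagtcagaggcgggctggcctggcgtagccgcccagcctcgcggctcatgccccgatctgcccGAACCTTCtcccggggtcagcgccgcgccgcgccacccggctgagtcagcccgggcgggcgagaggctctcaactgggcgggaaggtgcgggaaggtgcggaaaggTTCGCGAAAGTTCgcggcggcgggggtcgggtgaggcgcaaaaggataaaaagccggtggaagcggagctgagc
HSPA8 (chr11:123062137-123062386, minus strand): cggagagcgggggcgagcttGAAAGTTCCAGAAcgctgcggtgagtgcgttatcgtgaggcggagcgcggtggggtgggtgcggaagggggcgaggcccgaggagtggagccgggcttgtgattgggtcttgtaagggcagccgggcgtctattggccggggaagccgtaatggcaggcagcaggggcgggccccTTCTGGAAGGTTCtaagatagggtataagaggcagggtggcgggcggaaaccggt
HSPA1A (chr6:31815293-31815542, plus strand): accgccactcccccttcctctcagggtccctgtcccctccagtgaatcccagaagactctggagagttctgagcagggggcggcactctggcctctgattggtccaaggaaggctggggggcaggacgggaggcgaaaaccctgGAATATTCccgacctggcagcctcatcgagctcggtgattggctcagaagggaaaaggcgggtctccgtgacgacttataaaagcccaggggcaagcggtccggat
HSPA1B (chr6:31827488-31827737, plus strand): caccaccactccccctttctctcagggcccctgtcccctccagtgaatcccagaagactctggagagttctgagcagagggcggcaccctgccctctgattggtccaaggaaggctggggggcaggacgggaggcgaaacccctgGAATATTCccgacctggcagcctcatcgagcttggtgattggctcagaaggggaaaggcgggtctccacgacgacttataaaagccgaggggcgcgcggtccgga
The first pair hold matches to 3 adjoining repeats, the arrangement classically called a heat shock element. The second pair hold 2 repeats, or 3 where 1 mismatch is allowed.

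Promoters were searched over 250 bases before to 50 after each start, on both strands, for the 10 members with 12 annotated starts, HSPA4L having 3. The motif of 3 repeats without mismatch was found in 2 of the 12, those of HSPA6 and HSPA8. In HSPA6 it spans 74 to 62 bases before the start. HSPA8 has a pair of them, from 230 to 218 and from 55 to 43 bases before its start. The same motif is in 0.490% of all 35116 RefSeq promoters of this length. The motif of 2 repeats, which every 3-repeat match contains, was found in 7 of the 12 member promoters and in 13.5% of all promoters. The members without it in these windows were HSPH1, HSPA4 and HSPA13. Allowing 1 mismatch in the fixed letters of the 3-repeat motif gave 7 of the 12 member promoters and 6.24% of all promoters.

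HSPA1A and HSPA1B each have 1 match to 2 repeats about 100 bases before the start, flanked by a pair of CCAAT motifs (read as ATTGG on the other strand) and followed by TATAAA. The box bound by NF-Y, CCAAT, is in 34.6% of all promoters, and TATAAA, the box bound by TBP, in 7.33%. HSPA1L is transcribed away from HSPA1A, and 241 bases of their 250-base windows are the same DNA. The 2-repeat match of both genes is therefore 1 site, chr6:31815437-31815444. The promoter windows of HSPA1A and HSPA1B were identical at 94.4% of 249 aligned bases. These matches describe letters in a window and are not evidence of binding.

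**Figure D3:**
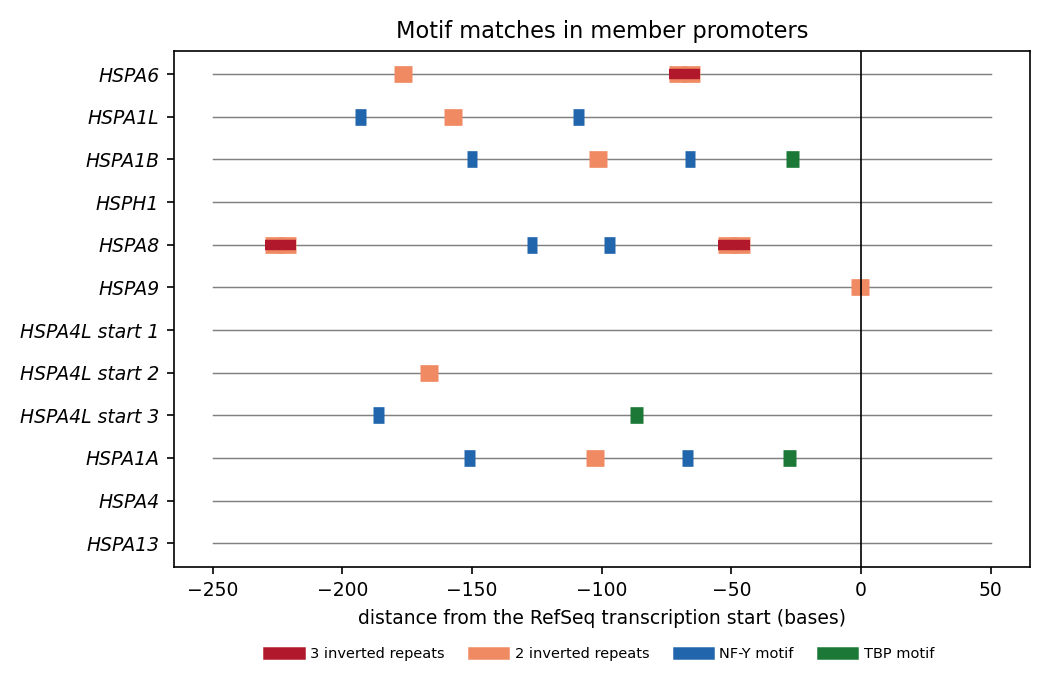
Motif matches in the 12 RefSeq promoters of the 10 members, against distance from the transcription start in bases; lines span the searched window, and colours mark 3 or 2 inverted GAA repeats, the NF-Y motif (CCAAT) and the TBP motif (TATAAA). Full 3-repeat matches are seen in HSPA6 and HSPA8 only, and HSPH1, HSPA4 and HSPA13 have no match to any of the 4 motifs.

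HSPA1B, HSPA1A and HSPA1L lie side by side in the major histocompatibility region of chromosome 6. HSPA1A and HSPA1B encode the main stress-inducible HSP70, and HSPA1L is a close relative. GENCODE 29 places HSPA1L from 31809619 to 31815065 on the minus strand, HSPA1A from 31815464 to 31817946 and HSPA1B from 31827735 to 31830255, both on the plus strand. By these GENCODE spans HSPA1L and HSPA1A are separated by 398 bases, and HSPA1A and HSPA1B by 9788. The promoter windows above were set from RefSeq starts, which differ from the GENCODE ones for these genes. HSPA1A and HSPA1B have 1 exon each, and HSPA1L has 2.

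HSPA1L had an implied mean of 313 normalized counts in shikonin and 5.83 in control. Its log2 fold change in the authors' deposited table was 5.75 ± 0.44 (standard error), or 53.7-fold (29.7 to 97.1). HSPA1B had an implied mean of 305 normalized counts in shikonin and 13.4 in control. By the authors' deposited table its log2 fold change was 4.51 ± 0.38 (standard error), or 22.8-fold (13.6 to 38.3). The intervals of these neighbours overlap, and both are clear of HSPA6 above and HSPH1 below.

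Values of HSPA1B are uncertain because of its near-identical copy. The coding sequences of HSPA1A and HSPA1B were identical at 1919 of 1923 bases (99.8%). Of the 50-base words in the reference transcript of HSPA1B, 73.5% also occur in transcripts of other genes, which leaves 656 words of its own. For HSPA1A the share was 72.6%, with 668 words of its own. A further overlap is AL671762.1, an annotated read-through transcript on the same strand that holds 872 words of HSPA1B. How the authors' counter treated reads that fit more than 1 gene is not stated in the sources at hand, so the absence of HSPA1A and the low level of HSPA1B may not be read as low RNA. HSPA1L shared 2.44% of its words, all with HSPA1A and HSPA1B, although their coding sequences were 82.9% and 82.7% identical to its own. HSPA6 shared 45.5% of its words, with HSPA7 alone, an HSP70 pseudogene. The annotated span of AL590385.2, a processed transcript on the same strand that was not listed, covers all 2371 bases of HSPA6, which lies in an intron of it. HSPA7 was not listed. HSPA6 and HSPA1A were 82.3% identical in coding sequence, and HSPA6 and HSPA8 73.9%.

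HSPA8 encodes HSC70, the constitutive cytosolic HSP70 of folding, clathrin uncoating and chaperone-mediated autophagy. It lies on chromosome 11 from 123057489 to 123063230 on the minus strand, with 9 exons. Its implied mean was 100028 normalized counts in shikonin and 36789 in control. In the authors' deposited table its log2 fold change was 1.44 ± 0.14 (standard error), or 2.72-fold (2.23 to 3.31). HSPA8 shared 15.4% of its words, mostly with processed pseudogenes such as HSPA8P1.

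HSPA9 encodes mortalin, the mitochondrial HSP70 that pulls proteins through the inner membrane. The gene is on chromosome 5 from 138553756 to 138575724, with 17 exons. Implied means were 7955 normalized counts in shikonin and 5082 in control. Its log2 fold change of 0.65 ± 0.12 (standard error) in the authors' deposited table is 1.57-fold (1.34 to 1.83), the listed member nearest to the 1.5-fold threshold. With equal implied totals it was 0.25, below that threshold. The 3 absent members have no values, so none can be given for genes just outside it. HSPA13, which encodes an HSP70-like protein of microsomes, is among the 3.

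The HSP110 genes went different ways. HSPH1, which encodes HSP105, the stress-inducible HSP110, lies on chromosome 13 from 31134974 to 31162388 and has 18 exons. It had an implied mean of 10759 normalized counts in shikonin and 2734 in control. Its log2 fold change was 1.98 ± 0.16 (standard error) in the authors' deposited table, or 3.94-fold (3.15 to 4.92), with an interval that overlaps that of HSPA8. HSPA4L, which encodes the HSP110 protein APG-1, lies on chromosome 4 from 127781821 to 127840733 and has 19 exons. Its implied mean was 681 normalized counts in shikonin and 1188 in control. The log2 fold change in the authors' deposited table was -0.80 ± 0.19 (standard error), or 1.74-fold lower (1.35 to 2.25). HSPA4, which encodes the constitutive HSP110 protein APG-2, was not listed.

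Per length, the order of the listed members changed between the groups, with no value for HSPA1A and an uncertain one for HSPA1B. Implied normalized counts per kb of transcript in shikonin were 61560 for HSPA6, 40612 for HSPA8, 3014 for HSPH1 and 1683 for HSPA9. HSPA1L stood at 123, HSPA1B at 121 and HSPA4L at 63.1 normalized counts per kb in shikonin. In control, the same measure was 14936 for HSPA8, 1075 for HSPA9, 766 for HSPH1 and 110 for HSPA4L, with HSPA6 at 10.1, HSPA1B at 5.31 and HSPA1L at 2.29. HSPA6 thus stood 1.52 times above HSPA8 per length in shikonin, and HSPA8 stood 1474 times above HSPA6 in control. How reads shared with other genes were counted is unknown, and 45.5% of HSPA6 words and 15.4% of HSPA8 words are shared. The place of HSPA6 above HSPA8 in shikonin may therefore depend on that counting. No interval can be put on a group mean here, so neighbours such as HSPA1L and HSPA1B in shikonin are given without a claim that they differ. The place of HSPA4L rests on its long reference transcript of 10790 nt: per kb of coding sequence it had 271 in shikonin, above HSPA1L at 163, and 472 in control. Per kb of its principal transcript of 5191 nt, HSPH1 had 2073 in shikonin and 527 in control, which leaves its place unchanged.

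**Figure D4:**
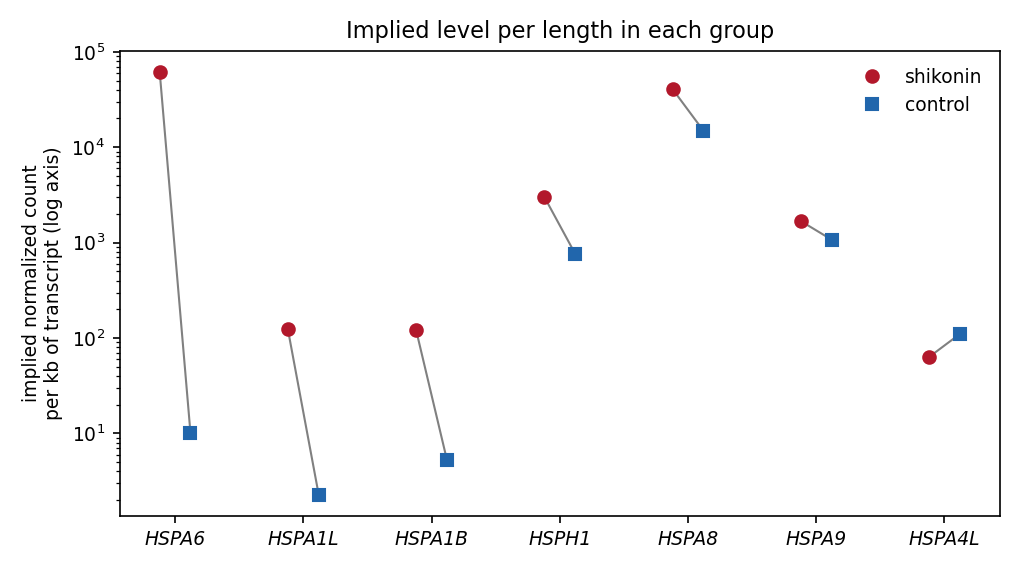
Implied normalized count per kb of reference transcript (log axis) for the listed members, shikonin as circles left of control as squares; each point is 1 implied group mean, without error. In shikonin HSPA6 lies at 61560, above HSPA8 at 40612, whereas in control HSPA6 lies at 10.1 and HSPA8 at 14936.

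Summed over the 7 listed members, the implied means came to 266001 normalized counts in shikonin and 45836 in control, a ratio of 5.80. HSPA6 made up 54.9% of that sum in shikonin and 0.0524% in control. HSPA8 made up 37.6% in shikonin and 80.3% in control. Of the increase in the sum, HSPA6 accounted for 66.3% and HSPA8 for 28.7%. The sum has no value for HSPA1A and an uncertain one for HSPA1B, so its ratio and shares describe the listed values only. Without HSPA6 the sum was 120042 in shikonin and 45812 in control, a ratio of 2.62. The members held 2.01% of the implied total of all listed genes in shikonin and 0.456% in control.

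The listed standard errors carry what can be known of the spread between libraries. With size factors near 1 and 1 dispersion in both groups, they imply a coefficient of variation beyond counting error. DESeq2 as a rule draws this toward that of genes with similar levels. Whether it did so for each member, HSPA6 included, cannot be seen from the listed values. The coefficient was 33.1% for HSPA6, 25.6% for HSPA1B, 22.3% for HSPA1L, 15.6% for HSPA4L, 13.8% for HSPH1, 12.3% for HSPA8 and 9.70% for HSPA9. Over the 2421 listed genes whose mean reached 1000 normalized counts, a level chosen after the values were seen, the median was 12.9%, and 10 of these genes lay above HSPA6. Counting error, from the implied means, made up 63.8% of the squared standard error of HSPA1L, 37.3% for HSPA1B and 16.0% for HSPA6. For HSPA8 that share was 0.123%. Counting error was thus the larger part of the error for HSPA1L, and spread between libraries the larger part for HSPA1B, HSPA6 and HSPA8.

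Direction in this comparison went with transcript length, so each member is set beside listed protein-coding genes of its length decile. In the decile of HSPA6, 1892 to 2412 nt, 82.4% of 692 genes were higher, and none had a larger log2 fold change. In that of HSPA1L, HSPA1B and HSPA8, 2412 to 3218 nt, 65.2% were higher, with 6 genes above HSPA1L, 19 above HSPA1B and 141 above HSPA8. Among genes of 3219 to 4072 nt, 33.1% were higher, and 53 of 692 had a larger log2 fold change than HSPH1. That place rests on a reference transcript of 3570 nt, while a transcript of HSPH1 annotated as principal has 5191 nt, outside this range. Among those of 4073 to 4925 nt, 18.2% were higher, and 119 stood above HSPA9. HSPA4L fell in the decile of the longest transcripts, where 4.62% were higher, the median log2 fold change was -1.55, and 79 of 692 stood above it. The part of length in the members' values was not tested.

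The partners of HSP70 were taken from 5 lists of 46 genes, drawn up with earlier results of these data known. Of these, 30 were listed, 26 higher and 4 lower, and 16 were not listed, where 25.5% of all tested genes were higher and 24.7% lower. Of the other HSP70 family genes, 3 were higher and 3 lower among 7, and the median log2 fold change was -0.01. HSPA2, a cytosolic HSP70 known mainly from testis, was 6.72-fold higher (interval 4.16 to 10.8), by the authors' deposited table. HSPA5, the HSP70 of the endoplasmic reticulum, was 2.77-fold higher (interval 2.25 to 3.40), again per the authors' deposited table. In the authors' deposited table the distant relatives were lower, HSPA12A by 2.34-fold (interval 1.79 to 3.06) and HSPA12B by 3.64-fold (interval 1.40 to 9.48). HSPA14 was listed higher, HYOU1 lower and HSPA7 not at all.

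Of 12 exchange factors and other cochaperones, 5 were higher, 1 was lower and 6 were not listed, a listed share near the 50.2% of all tested genes. BAG3, an exchange factor that links HSP70 to autophagy, was 5.25-fold higher (interval 4.28 to 6.43), per the authors' deposited table. Smaller increases in the authors' deposited table were 2.14-fold (interval 1.74 to 2.63) for BAG1, another exchange factor, and 1.87-fold (interval 1.53 to 2.28) for STIP1, which joins HSP70 to HSP90. By the authors' deposited table BAG5 was 1.64-fold lower (interval 1.34 to 2.00). Of 10 J-domain partners, which stimulate the ATPase of HSP70, 4 were higher, 0 were lower and 6 were not listed. Their log2 fold changes (± standard error) in the authors' deposited table were 4.78 ± 0.17 for DNAJB1, 3.49 ± 0.47 for DNAJA4, 2.38 ± 0.20 for DNAJB4 and 1.72 ± 0.14 for DNAJA1. DNAJA4 had an implied mean of 101 normalized counts in shikonin and 9.02 in control, while DNAJB1 had 107503 in shikonin and 3916 in control.

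Among 4 heat shock factors and regulators, HSBP1, a protein that binds HSF1, was 2.07-fold higher (interval 1.71 to 2.51) by the authors' deposited table, and HSF1, HSF2 and HSF4 were not listed. All 13 other heat shock response genes, also chosen with earlier results known, were higher, where 25.5% of all tested genes were. The median log2 fold change of these 13 was 1.52, beside 0.60 over all listed genes. Log2 fold changes (± standard error) among the 13 in the authors' deposited table included 3.04 ± 0.16 for HSPB1, which encodes HSP27, 2.71 ± 0.16 for HSPE1, the mitochondrial HSP10 gene, and 2.04 ± 0.15 for the polyubiquitin gene UBB. CRYAB, which encodes the small heat shock protein alphaB-crystallin, had an implied mean of 228 normalized counts in shikonin and 0.161 in control.

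**Figure D5:**
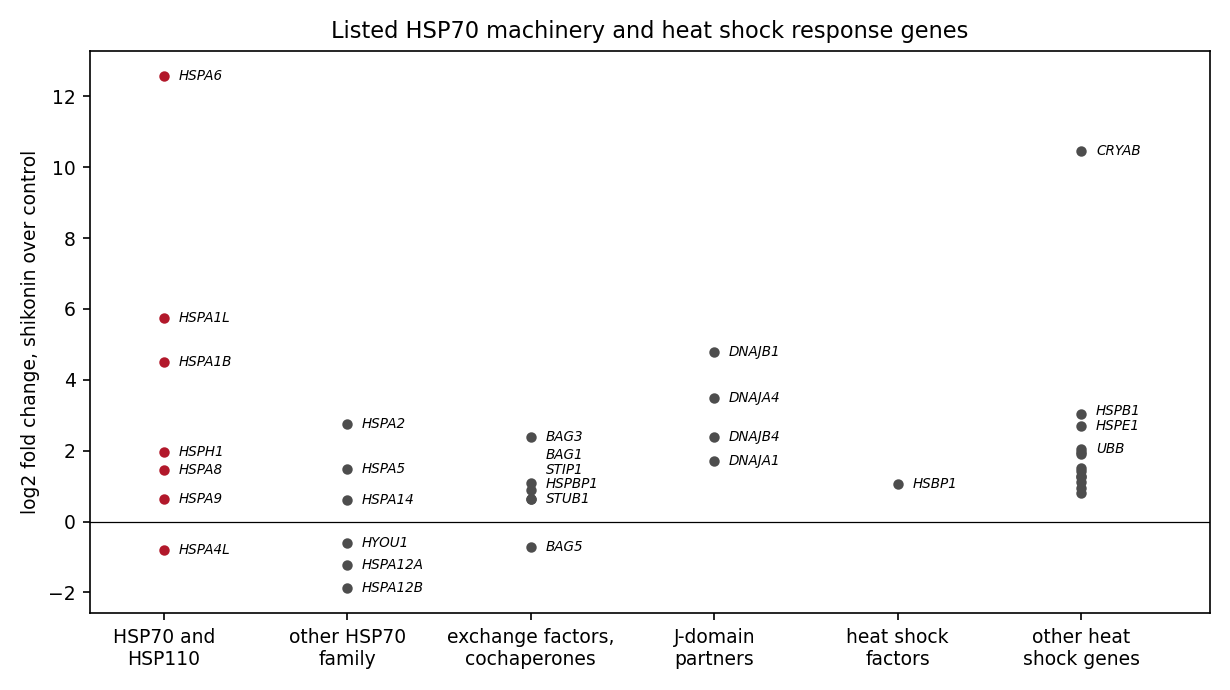
Log2 fold change, shikonin over control, of each listed gene among the 7 members (red) and the 5 lists of HSP70 partners and heat shock genes (grey); each point is 1 gene in the authors' deposited table, and in the last list only the 4 genes with the largest changes are named. Genes that are not listed have no point, and values below 0 are seen for HSPA4L, BAG5, HYOU1, HSPA12A and HSPA12B.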

How the data were processed

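Total RNA of 3 shikonin and 3 control libraries was prepared for sequencing by a NEBNext Ultra kit, as the labels' protocols state. Per the submitters' processing notes, reads went through HISAT2 2.0.5 on hg38, with fastp and DESeq2 also named. The sources do not state the counter, its annotation or whether strand was kept. Per the file headers, the authors deposited a mean normalized count (a signal over all libraries, scaled by size factors). Per the file headers they also deposited the log2 fold change with its standard error, a Wald score (checked to be their ratio) and p-values, raw and adjusted.

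From these, implied group means, 95% normal intervals, coefficients of variation and the number of genes tested were computed with Python 3.11.15, pandas 2.3.3 and numpy 2.4.6, and checked on simulated data. The mean per group assumes equal weight for 3 and 3 libraries. The planned tests on per-sample values were not run, as the table holds 0 such columns, and replicates could not be compared. GENCODE 29 (GRCh38) gave positions, and lengths from the transcript with the longest coding sequence. It matched 7142 of 7150 identifiers. Promoters are from RefSeq (GRCh38.p14), where all 10 members matched by symbol. Word sharing used 50-base words of GENCODE 29 transcripts, a length set without knowledge of the read length. Proteins were not used here.

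The members and lists were chosen with earlier results of these data known. Genes are named by a rule: all members, up to 4 genes with the largest absolute log2 fold change per list, and the 5 genes nearest to HSPA6 by log2 fold change. HSPA14, HYOU1, HSPA7, HSPA8P1, AL671762.1, AL590385.2 and the marker genes were named outside that rule, after values were seen. Alternatives tried were stricter thresholds, equal implied totals, leaving out HSPA6 or HSPA8 from the sum, and other forms of the promoter motif.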

Additional observations from a re-analysis of the deposited data

How the results depend on the processing

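The count of members listed higher was 5 or 6 under all 6 alternatives run (adjusted p under 0.001, fold at least 2, interval beyond 2-fold, mean of at least 100 and both versions of equal totals), HSPA9 being the member that left. Under fold at least 2 and under an interval beyond 2-fold, the count of members listed lower was 0 in place of 1. The log2 ratio of the summed implied means, 2.54, was 2.14 with equal implied totals, 2.17 with equal totals of the listed genes other than the members, 1.39 without HSPA6 and 4.20 without HSPA8. Of the 46 partner genes, 20 were higher and 2 lower at a fold of at least 2, where 16.4% and 14.6% of all tested genes were. With equal implied totals the partner counts were 20 and 4, beside 16.8% and 24.7%. The promoter count, 2 of 12, was 7 with 2 repeats, 7 with 1 mismatch and 2 in the 250 bases before the start. With equal totals, unlisted genes that would become lower are not seen.

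No paired analysis was possible because the table holds no per-sample values. For the same reason the replicate left out in turn, another size factor and no filter on low counts were not run. Depth per library is unknown, and folds of HSPA1L and HSPA1B rest on implied control means of 5.83 and 13.4 normalized counts.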
